A study of Homo sapiens with 6 samples.

Results

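The genes described here encode core proteins of the spliceosome and the 2 large classes of RNA-binding proteins that steer it, the SR proteins and the heterogeneous nuclear ribonucleoproteins (hnRNPs). They were chosen by symbol among protein-coding genes, as PRPF, SF3A and SF3B, SNRP, SRSF, U2AF and HNRNP genes, and 77 of the 35052 genes in the tables fitted. They comprised 27 HNRNP, 13 PRPF, 12 SNRP, 12 SRSF, 9 SF3A and SF3B and 4 U2AF genes. RNA was measured in EoL-1, a human leukaemia line grown as a stand-in for eosinophils, in RPMI medium with fetal bovine serum. The tested cells carried an ATF3 knockout made with CRISPR/Cas9 (3 libraries), and the cells they were set against were wild type (3 libraries). The series' design text speaks of a knockdown, while the sample labels say knockout. No label says whether the replicates were separate cultures or clones, so each p-value reflects the spread among these libraries alone, which may be technical.

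The spliceosome removes introns from precursor RNA. The small nuclear ribonucleoproteins U1 and U2 first recognise the ends of the intron, with U2AF at the 3′ end, and the U4/U6.U5 tri-snRNP then joins and is rearranged into the active enzyme. SR proteins bind exons and mostly favour their inclusion, hnRNPs often oppose it, and many genes of both classes limit their own output by splicing in an exon with an early stop codon, which sends the transcript to nonsense-mediated decay. ATF3, the targeted gene, encodes a bZIP transcription factor that cells make under stress.

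Libraries held between 26766103 and 30117281 estimated reads. ATF3 itself had 146, 229 and 132 reads in knockout libraries, against 634, 462 and 632 in wild-type libraries, so its RNA was lower but still present (log2 fold change −1.75, SE 0.25, adjusted p = 0.0098 by edgeR's quasi-likelihood test; adjusted p at most 0.0527 with 1 library left out, without wild-type replicate 1). Of 13 eosinophil markers, 4 had enough reads to be tested, and EPX, PRG2, CLC, CCR3, SIGLEC8 and IL5RA were among the untested. Some marker lists moved with the groups. Summed eosinophil markers lay at 118 to 188 CPM in knockout and 37.6 to 52.8 CPM in wild-type libraries, neutrophil markers at 339 to 620.0 CPM in knockout and 82.4 to 172 CPM in wild type, and monocyte markers at 608 to 919 CPM in knockout and 158 to 406 CPM in wild type. Endothelial and stromal markers (38.0 to 41.9 CPM in knockout, 16.3 to 19.5 CPM in wild type) and megakaryocyte and erythroid markers (0.960 to 2.00 CPM in knockout, 0.433 to 0.738 CPM in wild type) also lay higher. Single genes made up most of some sums. Among these were RNASE2 for eosinophils (93.15 to 151.8 CPM in knockout, 29.37 to 40.86 CPM in wild type) and PECAM1 for endothelium and stroma (37.09 to 41.4 CPM in knockout, 15.5 to 18.59 CPM in wild type). For megakaryocyte and erythroid markers it was ITGA2B (0.9254 to 1.885 CPM in knockout, 0.3244 to 0.5622 CPM in wild type). For lymphocyte markers it was NKG7 (124.8 to 166.2 CPM in knockout, 108.2 to 128.2 CPM in wild type). LYZ was the largest part of the monocyte sum (347.1 to 746.2 CPM in knockout, 62.29 to 259.2 CPM in wild type). In that list 3 of 6 tested markers were called higher and 0 lower, and CD68, FCGR1A and CD163 were not called. Lymphocyte markers (132 to 173 CPM in knockout, 113 to 136 CPM in wild type) and mast cell and basophil markers (0.206 to 2.04 CPM in knockout, 0.255 to 1.23 CPM in wild type) overlapped. Their part in the results was not tested, and in bulk RNA fewer cells of a type and less RNA per cell cannot be told apart. On the first principal component, with 42.1% of the variance, knockout libraries lay between −35.5 and −21.0 and wild-type libraries at 37.9, 13.5 and 34.9. On the second, knockout replicate 3 lay at −41.7, away from its group at 13.1 and 14.6.

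Most of the spliceosome and splicing-regulator genes differed little between knockout and wild type, in small steps that were more often downward. Of the 77 genes, 72 had enough reads to be tested. In the fit over all 13131 tested genes, 10 of the 72 passed an adjusted p of 0.05 by edgeR's quasi-likelihood test with Benjamini-Hochberg adjustment, which is 13.9%, beside 21.1% of all genes. One, PRPF8, was higher (11.4% of all genes were), and 9 were lower (9.72% of all genes), namely HNRNPDL, HNRNPA3, HNRNPR, PRPF6, SF3A2, SF3A3, SF3B6, SNRPA1 and SRSF6. The genes were chosen with this comparison known, so these shares are a description. The median log2 fold change of the tested genes was −0.07, beside 0.01 over all genes, and without PRPF8 the values ran from −0.38 to 0.29. In 27 of the 72 genes every knockout library lay below every wild-type library, and in 9 every one lay above. Groups did not overlap in 50.0% of these genes and in 43.5% of all genes (22.2% with knockout above, 21.4% below). With a trend on GC content removed, 3 of the genes were called higher and 10 lower, but just 5 of the 10 calls above were among them (SF3B6, SRSF6, HNRNPR, SNRPA1 and HNRNPA3 were lost), and over all genes 43.3% of calls were higher instead of 53.9%. Without wild-type replicate 1, edgeR called 0 genes of the set (19 at an unadjusted p under 0.05, smallest adjusted p 0.0503), and without wild-type replicate 3 it called 1. Without knockout replicate 1, 2 or 3 it called 3, 4 and 14, of which 3, 4 and 8 were among the 10, and without wild-type replicate 2 it called 6, all among them. With an offset from the deposited effective lengths, averaged per gene with TPM as weights, it called 3, of which 2, SF3A2 and HNRNPDL, were among the 10. DESeq2 on all libraries called 22. Calls over all genes moved as well, from 1494 higher and 1276 lower in the main test. They were 0 and 0 without wild-type replicate 1, 1342 and 1131 without replicate 2, and 210 and 148 without replicate 3. Without knockout replicate 1, 2 or 3 they were 741 and 665, 929 and 792, and 1370 and 1388. The effective length offset gave 722 and 661, and DESeq2 gave 1842 and 1734. The 10 genes kept their direction in all 16 alternatives tried.

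**Figure D1:**
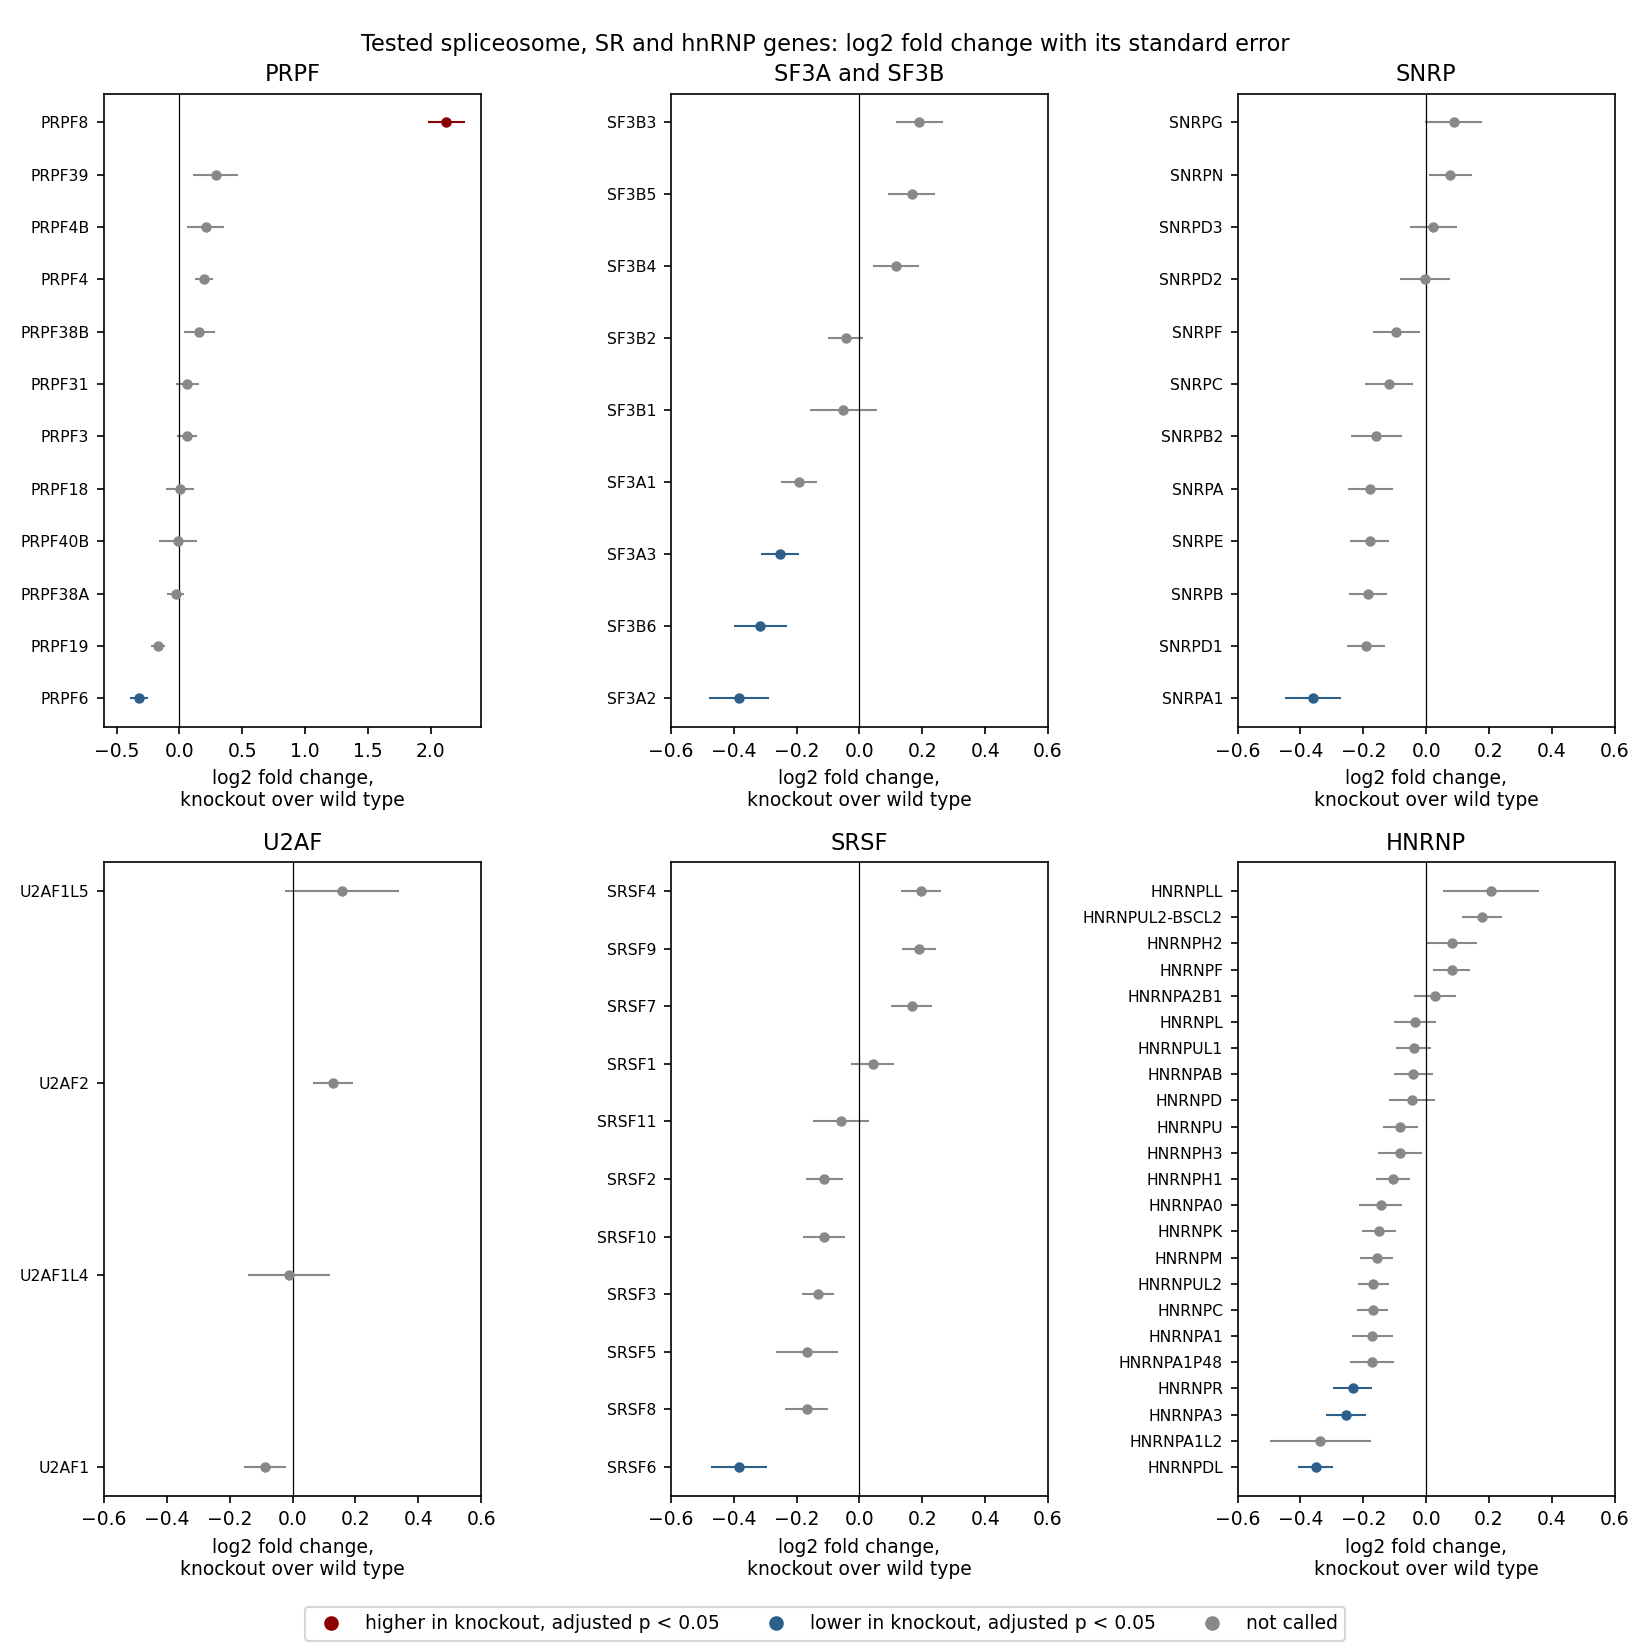
Log2 fold change (knockout over wild type, x axis) with its standard error for 71 of the 72 tested genes, 1 panel per symbol family, with a wider x axis for PRPF. PRPF8 stands alone at 2.12 and the other genes lie between −0.38 and 0.29, with the 9 genes called lower in blue.

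Measured per length, the classes differed widely in level. HNRNPA1 was the highest at 2388 ± 95.8 TPM in knockout and 2579 ± 40.4 TPM in wild-type libraries (SD, n = 3 each). HNRNPH1 followed at 949 ± 23.0 TPM in knockout and 966 ± 55.9 TPM in wild type, and the next 3 were also HNRNP genes. SNRPD2, a ring protein of the snRNP core, reached 463 ± 20.4 TPM in knockout and 441 ± 32.7 TPM in wild type, and SRSF3 394 ± 10.8 TPM in knockout and 404 ± 6.41 TPM in wild type. HNRNPA2B1 and HNRNPC, ranked beside each other, did not differ beyond their spread (665 ± 65.0 and 617 ± 40.6 TPM in knockout, 615 ± 26.7 and 662 ± 20.2 TPM in wild type). The 5 untested genes were HNRNPCL1 to HNRNPCL4 and SRSF12, of which SRSF12 had 0.095 ± 0.033 TPM in knockout and 0.079 ± 0.034 TPM in wild-type libraries, and HNRNPCL2, HNRNPCL3 and HNRNPCL4 were listed at 0 in all 6. Reads of all 77 genes made up 2.01 to 2.09% of gene reads in knockout and 2.05 to 2.14% in wild-type libraries, ranges that overlap. These shares are not TMM-scaled. In TMM-scaled CPM, SF3A and SF3B genes summed to 1892 to 1971 in knockout and 2016 to 2070 in wild type. SNRP genes summed to 1325 to 1436 and 1446 to 1527, and SRSF genes to 2767 to 2864 and 2905.5 to 3014, in the same order. These sums and that of HNRNP genes did not overlap, while those of PRPF and U2AF genes did.

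PRPF8, the largest protein at the catalytic centre of the spliceosome and part of U5, was the only gene of the set called higher, and its value depends on which transcripts are counted. By identifier it had 718, 666 and 604 reads in knockout libraries, against 140, 176 and 148 in wild-type libraries (ENSG00000174231.16, chr17:1650629-1684882, minus strand, GRCh38). The groups did not overlap, and the log2 fold change was 2.12 (SE 0.14, adjusted p = 0.00731 by edgeR). Without wild-type replicate 1 the adjusted p was 0.0503. Counted this way, PRPF8 ranked 69 of the 77 genes by TPM.

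Of the 16 PRPF8 transcripts in the GENCODE 29 annotation, 3 were in the tables and 13 were absent. Over all 77 genes, 15 of 722 annotated transcripts were absent, so PRPF8 holds nearly all of them. The long coding transcript (7280 bases) had 570, 564 and 347 reads in knockout libraries and was listed at 0 in all 3 wild-type libraries. A coding transcript of 749 bases had 148, 102 and 119 reads in knockout and 140, 176 and 148 in wild-type libraries, which overlap. One of 380 bases had 139 reads in knockout replicate 3 and was listed at 0 in the other libraries.

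The tables also hold 14 neighbouring transcripts with no gene in the annotation whose lengths equal, one for one, those of 14 annotated PRPF8 transcripts, among them 7295 and 7445 bases. For no other gene of the set did such a run exceed 3. They held 20383, 22436 and 21265 reads in knockout and 17061, 18604 and 20328 in wild-type libraries, of which at least 98.2% fell on the 2 longest. Scaled to library size, they stood at 784, 816 and 729 CPM in knockout and 615, 653.5 and 741 CPM in wild-type libraries, so wild-type replicate 3 lay within the knockout range. The reads matched to PRPF8 were 2.76 to 3.4% of the sum of both in knockout and 0.724 to 0.940% in wild-type libraries. Adding the run to PRPF8, an alternative chosen after seeing the data, gave 812, 840.2 and 749 CPM in knockout and 619.9, 659.7 and 746 CPM in wild-type libraries. The log2 fold change was then 0.25 (SE 0.08, adjusted p = 0.0817 by edgeR), the gene was no longer called, and 0 of the tested genes were called higher. The sequences of these 14 transcripts are not used here, so their origin was not tested and they are given no gene name.

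**Figure D2:**
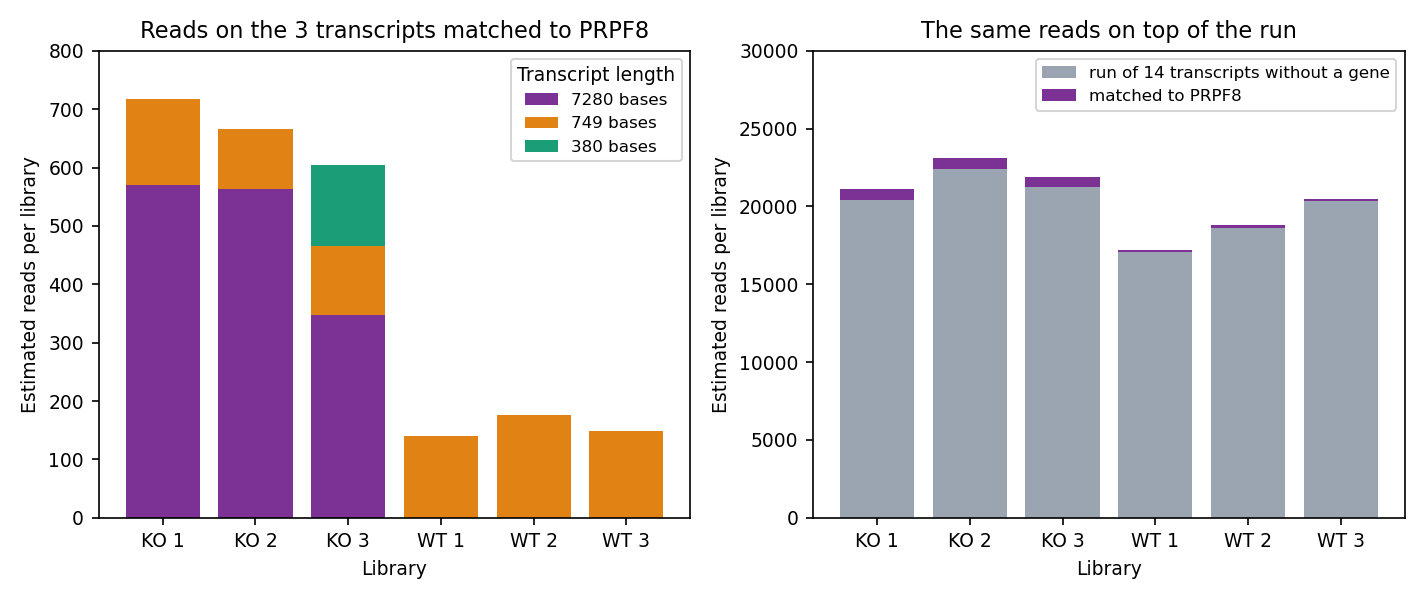
Estimated reads per library (y axis) in 3 knockout (KO) and 3 wild-type (WT) libraries. On the left, the 3 transcripts matched to PRPF8 by identifier are stacked by length, and the 7280-base transcript appears only in knockout libraries. On the right, the same reads, at most 3.4% of each bar, sit on the run of 14 transcripts without a gene.

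Among the other PRPF genes, PRPF6 fell in knockout cells and the rest were not called. PRPF6, the tri-snRNP protein that bridges U5 and U4/U6, had 101.5, 96.4 and 103 CPM in knockout libraries, against 132, 115 and 129 CPM in wild-type libraries (chr20:63981135-64033100). All 3 knockout libraries lay below all wild-type libraries (log2 fold change −0.32, SE 0.07, adjusted p = 0.0234 by edgeR). The call was lost without knockout replicate 1 or 2 or wild-type replicate 1 or 3, with an adjusted p up to 0.105, and with the effective length offset (0.0521). PRPF4, a U4/U6 protein, lay above in every knockout library, at 119 to 132.5 CPM in knockout and 103.5 to 112 CPM in wild type, without passing the test (adjusted p = 0.0854). PRPF38B, PRPF4B and PRPF39 had their lowest knockout value in replicate 3, at 137, 141 and 50.7 CPM, and their groups overlapped. PRPF4 and these 3 genes were chosen after their values were seen.

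The SF3A and SF3B genes encode the 2 protein complexes that hold U2 at the branch point. Of 9 tested, 3 fell (33.3%, beside 9.72% of all genes) and 6 were not called. SF3A2, which binds near the branch point, had 157.5, 143.5 and 175 CPM in knockout libraries, against 215, 188 and 218 CPM in wild-type libraries (log2 fold change −0.38, SE 0.10, adjusted p = 0.033 by edgeR). Its partner SF3A3 had 157, 147 and 162 CPM in knockout libraries, against 183, 181.5 and 189.8 CPM in wild-type libraries (−0.25, SE 0.06, adjusted p = 0.0306). SF3B6, the small subunit known to contact the branch point adenosine, had 83.0, 79.3 and 94.3 CPM in knockout libraries, against 107, 101 and 112 CPM in wild-type libraries (−0.32, SE 0.08, adjusted p = 0.039). In all 3 genes the groups did not overlap. The third SF3A subunit, SF3A1, lay lower in every knockout library too, at 190.1 to 195.5 CPM in knockout and 213 to 231 CPM in wild type, and missed the threshold (adjusted p = 0.0535). SF3B1, the large scaffold of SF3B and the family's most abundant gene in CPM, had 667, 614 and 511 CPM in knockout and 599.8, 662 and 594 CPM in wild-type libraries (−0.05, SE 0.11, adjusted p = 0.763). Its groups overlap, and its sign turned to 0.04 without knockout replicate 3. SF3B3 and SF3B5 lay above in every knockout library without passing (adjusted p = 0.11 and 0.153). In the family, 2 of 9 genes lay above in this way and 4 below, beside 22.2% and 21.4% of all genes. The 3 calls were lost without wild-type replicate 1 or 3 or knockout replicate 1 or 2, and that of SF3A3 also without wild-type replicate 2, with adjusted p values up to 0.141. Those of SF3A2 and SF3A3 were also lost with same-length transcripts that have no gene added (adjusted p = 0.0876 and 0.050). These were 51 and 39 transcripts matched by length alone, 0 of them at a length that only that gene holds, so they may belong to other genes. The calls of SF3A3 and SF3B6 were lost with the effective length offset (0.0594 and 0.0779) and that of SF3B6 with the GC trend removed (0.166). SF3A2 shares 398 exon bases with PLEKHJ1 on the opposite strand, and whether reads were assigned by strand is not given in the sources used here.

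Because ATF3 and its bZIP relatives are known to bind the sequences TGACGTCA and TGANTCA, the promoters were searched for both on either strand. RefSeq promoter windows (GRCh38.p14, 250 bases before to 50 after the start) were found for 66 of the 77 genes, in 89 windows. TGACGTCA occurred in 0 of the 89 windows and in 1.85% of 35116 windows of all genes. TGANTCA occurred in 5 of the 89 windows (5.62%, genes SF3A2, SNRPB2, SNRPD2 and SNRPD3), and in 7.71% of all windows. Of the 9 genes called lower, all with a window, SF3A2 was the only one with such a match, so its window is shown (chr19:2236574-2236873, plus strand), with the match in capitals. A match is a run of letters and not evidence of binding.
SF3A2 promoter: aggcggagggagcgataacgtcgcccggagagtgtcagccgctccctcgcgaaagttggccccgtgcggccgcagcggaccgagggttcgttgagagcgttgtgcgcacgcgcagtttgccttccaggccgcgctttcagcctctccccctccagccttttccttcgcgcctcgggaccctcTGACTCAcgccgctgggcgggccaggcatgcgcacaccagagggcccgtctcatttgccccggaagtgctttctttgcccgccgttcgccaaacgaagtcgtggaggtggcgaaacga

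The SNRP genes encode the shared ring of Sm proteins around the spliceosomal RNAs and proteins particular to U1 and U2. Of 12 tested, 1 fell (8.33%, beside 9.72% of all genes) and 11 were not called. In 6 of the 12 (50.0%) every knockout library lay below every wild-type library, beside 21.4% of all genes. SNRPA1, a protein particular to U2, had 64.4, 58.7 and 71.3 CPM in knockout libraries, against 88.8, 82.15 and 78.7 CPM in wild-type libraries (chr15:101281510-101295282). The groups did not overlap (log2 fold change −0.36, SE 0.09, adjusted p = 0.0334 by edgeR). The call was lost on leaving out any library but knockout replicate 3, with an adjusted p up to 0.130. It was also lost with the effective length offset (0.0779), the GC trend removed (0.0528), same-length transcripts added (0.165) and a replicate block (0.0528). The same-length transcripts added were 90, 0 of them at a length that SNRPA1 alone holds, so they may belong to other genes. The ring protein SNRPB, most abundant of the family in CPM, had 218, 223 and 240.4 CPM in knockout libraries, against 254, 257 and 264.5 CPM in wild-type libraries, without overlap and without passing (−0.19, SE 0.06, adjusted p = 0.0694). The other ring proteins were not alike. SNRPD1 and SNRPE had log2 fold changes of −0.19 and −0.18, while SNRPD2, SNRPD3 and SNRPG had −0.0027, 0.02 and 0.09, and none passed the test. SNRPN shares 814 exon bases with SNURF on the same strand, so the split of their reads is uncertain.

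None of the 4 U2AF genes was called by edgeR, and the smallest unadjusted p among them, that of U2AF2, was above 0.05. U2AF2, the subunit that reads the polypyrimidine tract, had 516, 568 and 529 CPM in knockout libraries, against 492, 514.2 and 471 CPM in wild-type libraries. The knockout libraries lay above by a narrow margin (log2 fold change 0.13, SE 0.06, adjusted p = 0.193 by edgeR), and with the GC trend removed the value was −0.03. U2AF1, which reads the AG at the end of the intron, and its near-identical copy U2AF1L5 cannot be separated with certainty. Together they stood at 140.5, 140.4 and 142 CPM in knockout and 141, 152 and 131 CPM in wild-type libraries, which overlap.

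Of 11 tested SR protein genes, 1 fell (9.09%, beside 9.72% of all genes) and 10 were not called. SRSF6, an SR protein with broad effects on exon inclusion, had 208, 167 and 198.5 CPM in knockout libraries, against 252, 241 and 254.5 CPM in wild-type libraries (chr20:43457928-43464247, plus strand). The groups did not overlap (log2 fold change −0.38, SE 0.09, adjusted p = 0.0281 by edgeR), with the lowest value in knockout replicate 2. The call was lost without wild-type replicate 1 or 3 (adjusted p at most 0.108), with the GC trend removed (0.107) and with the effective length offset (0.0733). SRSF3, the most abundant SR gene in CPM, had 429, 420.2 and 439 CPM in knockout libraries, against 463, 473 and 475 CPM in wild-type libraries, also without overlap but without passing (−0.13, SE 0.05, adjusted p = 0.11). SRSF4, SRSF7 and SRSF9 pointed the other way, each higher in every knockout library, with log2 fold changes of 0.20, 0.17 and 0.19 and adjusted p values of 0.0671, 0.114 and 0.0518. Of the 11 tested SR genes, these 3 lay above in every knockout library and 4 lay below, beside 22.2% and 21.4% of all genes. SRSF4, SRSF7 and SRSF9 were chosen after their values were seen.

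Within SRSF6, the coding transcript separated the groups and the decay-annotated one did not. SRSF6-201 (protein coding) had 4444, 3479 and 4860 reads in knockout libraries, against 6021, 5906 and 6190 in wild-type libraries, with no overlap (adjusted p = 0.165 by edgeR over all transcripts, not called). SRSF6-202, annotated as a target of nonsense-mediated decay, had 958, 1101 and 931 reads in knockout libraries and 972, 947 and 792 in wild-type libraries, which overlap. As a share of the gene's TPM, SRSF6-202 made up 38.2, 47.6 and 35.5% in knockout libraries, against 31.7, 31.5 and 26.9% in wild-type libraries. Every knockout library was above, but the test of transcript usage, edgeR's diffSpliceDGE over all transcripts, did not call it (log2 difference from the rest of the gene 0.55, adjusted p = 1.0). The reading frame of SRSF6-202 ends in its exon 3 (chr20:43459153-43459420, 268 bases, GRCh38). SRSF6-202 held a larger share of TPM than of reads, so it also differs from SRSF6-201 in length. The structures of SRSF6-201 and SRSF6-202 were not compared further, and whether the reads that separate them lie in exon 3 was not tested. The coding part of that exon is shown, from GENCODE 29, with the stop codon in capitals (chr20:43459153-43459304).
SRSF6-202 exon 3: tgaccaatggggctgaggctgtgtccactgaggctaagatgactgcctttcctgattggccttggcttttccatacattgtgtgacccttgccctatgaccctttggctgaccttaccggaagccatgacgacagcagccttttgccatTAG

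Few single transcripts passed a test. Of 434 transcripts of these genes with a usage test, 2 were called by diffSpliceDGE (14 at an unadjusted p under 0.05), beside 0.502% of 47033 transcripts overall. These were PRPF8-201, the long PRPF8 transcript above (adjusted p = 0.000143), and SRSF11-203. For PRPF8-201 the test used only transcripts matched to PRPF8 by identifier, which held at most 3.4% of the reads summed with the run of 14. Usage with that run included was not tested, so the call does not speak for PRPF8 as a whole. At the level of single transcripts, edgeR called 0 of 440 tested, and 0.0% of the 50394 tested in all, with 86 of the 440 and 7899 of all at an unadjusted p under 0.05. With a minimum of 30 reads it called 2, PRPF8-201 and HNRNPH1-218.

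SRSF11, an SR-related nuclear protein, was not called as a gene, with 308, 330.2 and 262.5 CPM in knockout and 318.5, 312 and 308 CPM in wild-type libraries (adjusted p = 0.676 by edgeR). Its transcript SRSF11-203 had 566, 796 and 587 reads in knockout libraries, against 39.2, 223 and 237 in wild-type libraries. That is 5.08, 6.05 and 5.36% of the gene's TPM in knockout libraries, against 0.295, 1.71 and 1.83% in wild-type libraries, with no overlap (log2 difference from the rest of the gene 2.04, adjusted p = 0.0064 by diffSpliceDGE). The call was lost without knockout replicate 2 or wild-type replicate 1. By class, picked with the values in view, its coding transcripts together made up 35.9, 37.3 and 36.4% of the gene's TPM in knockout libraries, against 25.6, 26.4 and 25.0% in wild-type libraries. Its processed transcripts, a class annotated without a coding frame, made up 63.2, 61.5 and 62.5% in knockout libraries, against 71.6, 71.0 and 72.1% in wild-type libraries. Neither class overlapped between the groups, and the sums by class were not tested. The close form SRSF11-202 had 820, 750.2 and 914 reads in knockout and 917, 912 and 977.5 in wild-type libraries. As unscaled reads these overlap, by 914 in knockout replicate 3 against 912 in wild-type replicate 2. Libraries differed in total reads, so the overlap may not hold once reads are scaled to library size. SRSF11-202 and SRSF11-203 both have 13 exons and share 10 inner exons exactly. SRSF11-203 lacks 3 bases at the start of exon 2 and 3 at the start of the last exon, ends 1435 bases earlier and starts further upstream, at 70205682 against 70205724 in SRSF11-202. The junction into the last exon, 30 coding bases on each side, is shown for both because it is one of the places where they differ, with the 3 extra bases in capitals (last exon from chr1:70250608 in SRSF11-202 and chr1:70250611 in SRSF11-203, plus strand, GRCh38).
SRSF11-202: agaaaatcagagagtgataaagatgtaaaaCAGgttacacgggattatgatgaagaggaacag
SRSF11-203: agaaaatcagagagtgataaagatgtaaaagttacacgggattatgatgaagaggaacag
The error of assigning reads between 2 such forms is not in the deposited tables and not in the test.

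**Figure D3:**
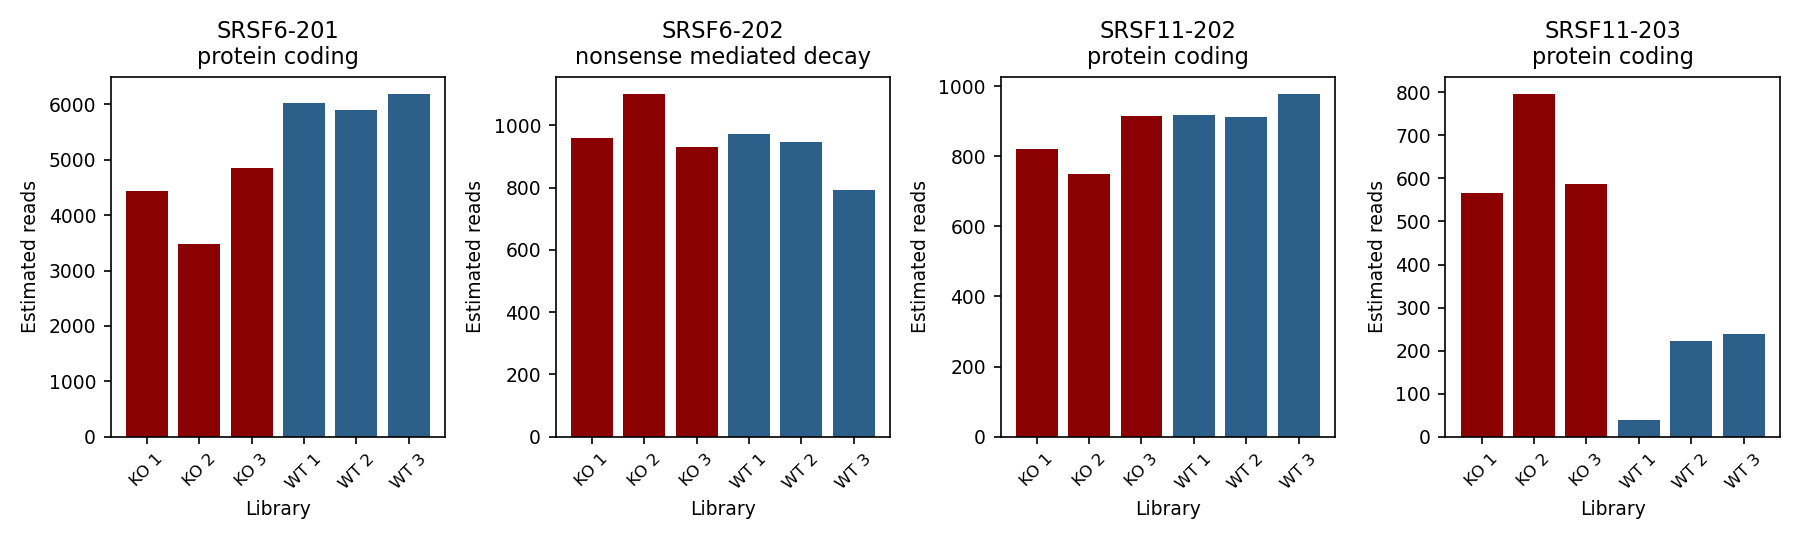
Estimated reads (y axis, each panel with its own scale from 0) of 2 SRSF6 and 2 SRSF11 transcripts in 3 knockout (KO, red) and 3 wild-type (WT, blue) libraries. The coding SRSF6-201 is lower in all 3 knockout libraries, at most 4860 reads against at least 5906 in wild type, while SRSF6-202 overlaps, and SRSF11-203 lies at 566 or more in knockout and at most 237 in wild type.

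The shares of decay-targeted and intron-retaining transcripts were large in several SR and hnRNP genes and mostly did not separate the groups. Of 33 tested genes with decay-annotated transcripts, the share lay above in every knockout library in 2 (SF3A1 and SRSF6) and below in 3 (among them SRSF11 and U2AF2). That is 15.2% of them, beside 13.5% of 4675 genes overall (5.28% above, 8.24% below). In SRSF1, SRSF3 and SRSF8 it was 33.7 ± 0.50, 22.1 ± 0.46 and 47.7 ± 4.14% in knockout and 33.4 ± 1.21, 22.5 ± 0.27 and 47.3 ± 1.96% in wild-type libraries (SD, n = 3 each), so these genes overlapped between the groups. Of 42 tested genes with intron-retaining transcripts, the share lay above in every knockout library in 4 (HNRNPA1, HNRNPU, PRPF31 and SRSF5). It lay below in 7 (HNRNPA2B1, HNRNPC, SF3B1, SNRPA1, SRSF1, SRSF7 and SRSF10). Together these are 26.2% of the 42, beside 15.0% of 6605 genes overall (9.14% above, 5.84% below). SRSF10, an SR-like splicing repressor, had 18.3, 18.9 and 17.3% in knockout libraries, against 24.3, 23.9 and 21.8% in wild-type libraries. SRSF5 had 24.7, 18.9 and 21.1% in knockout libraries, against 17.4, 16.3 and 17.6% in wild-type libraries. SNRPA1 had 18.7, 14.3 and 20.1% in knockout libraries, against 21.5, 24.2 and 22.8% in wild-type libraries. With 3 libraries a side, an exact permutation test on such a share cannot give a two-sided p under 0.10, and none of these transcripts was called by diffSpliceDGE.

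**Figure D4:**
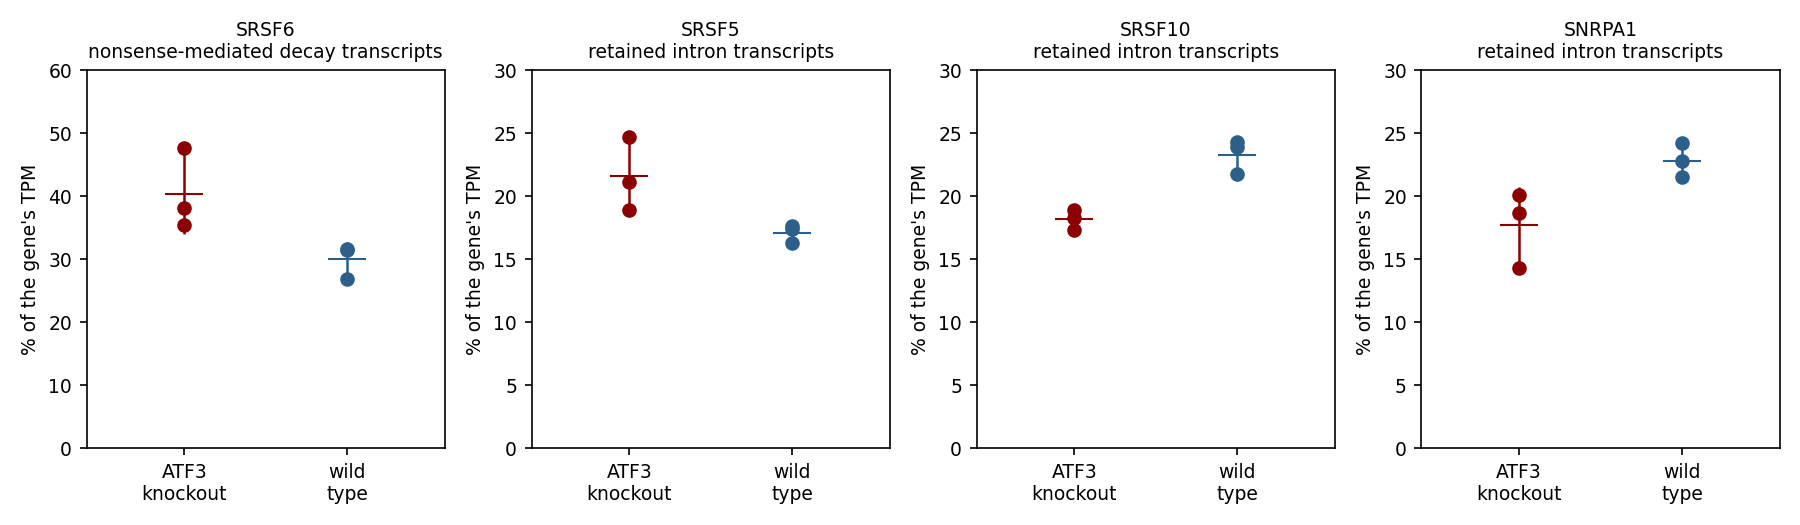
Share of each gene's TPM (y axis, %) in transcripts annotated for nonsense-mediated decay (SRSF6) or with a retained intron (SRSF5, SRSF10, SNRPA1), with 3 knockout libraries in red and 3 wild-type libraries in blue, and the mean with its SD. SRSF6 and SRSF5 lie higher in knockout (lowest 35.5 and 18.9%, against highest 31.7 and 17.6% in wild type) and SRSF10 and SNRPA1 lower (means 18.2 and 17.7% in knockout, against 23.3 and 22.8% in wild type).

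Of 23 tested HNRNP genes, 3 fell (13.0%, beside 9.72% of all genes) and 20 were not called. Of the 23, 18 had a negative log2 fold change, beside 6476 of the 13131 genes tested in all. HNRNPDL, a relative of HNRNPD that acts in splicing and RNA stability, had 391.9, 365 and 369.9 CPM in knockout libraries, against 489.7, 484 and 465 CPM in wild-type libraries (log2 fold change −0.35, SE 0.06, adjusted p = 0.0114 by edgeR). HNRNPA3, of the HNRNPA/B group, had 704, 692 and 638 CPM in knockout libraries, against 789.6, 852 and 786 CPM in wild-type libraries (−0.26, SE 0.06, adjusted p = 0.0347). HNRNPR, a relative of SYNCRIP, had 255, 277 and 249 CPM in knockout libraries, against 305, 302 and 312 CPM in wild-type libraries (−0.23, SE 0.06, adjusted p = 0.0386). None of the 3 overlapped between groups. The call of HNRNPDL was lost without wild-type replicate 1 or 3 (adjusted p up to 0.0655), that of HNRNPA3 on leaving out any library (0.0503 to 0.109) and that of HNRNPR on leaving out any but knockout replicate 2 (up to 0.141). The calls of HNRNPA3 and HNRNPR were also lost with the GC trend removed (adjusted p = 0.0583 and 0.0564) and the effective length offset (0.192 and 0.103), and that of HNRNPR with no filter (0.0568) and a replicate block (0.0672).

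HNRNPA1, the most abundant gene of the set and a classic repressor of exon inclusion, had 2063, 2050 and 2311 CPM in knockout libraries, against 2416, 2346 and 2470 CPM in wild-type libraries. The groups did not overlap, but knockout replicate 3 came close to wild type, and the gene was not called (log2 fold change −0.17, SE 0.06, adjusted p = 0.103 by edgeR). Without that library the adjusted p was 0.0294. HNRNPA1L2 and HNRNPA1P48 are near-copies of it, and the 3 together stood at 2281, 2289 and 2566 CPM in knockout and 2684, 2607 and 2750.0 CPM in wild-type libraries. HNRNPC, HNRNPUL2, HNRNPM, HNRNPK, HNRNPA0, HNRNPH1 and HNRNPA1P48 likewise lay below in every knockout library without passing, with log2 fold changes from −0.17 to −0.10. Groups did not overlap in 52.2% of the 23 tested HNRNP genes (11 below, 1 above), beside 43.5% of all genes (21.4% below, 22.2% above). The near-copy HNRNPA1P48 is counted among the 11. HNRNPUL2-BSCL2, a read-through gene that shares the HNRNPUL2 exons, lay above in every knockout library (0.18, adjusted p = 0.0916). Summed with HNRNPUL2 it stood at 301, 307 and 307 CPM in knockout and 313, 326.5 and 319.9 CPM in wild-type libraries. Over the 27 HNRNP genes the summed level was 11750 to 12026 CPM in knockout and 12753 to 13174 CPM in wild-type libraries.

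**Figure D5:**
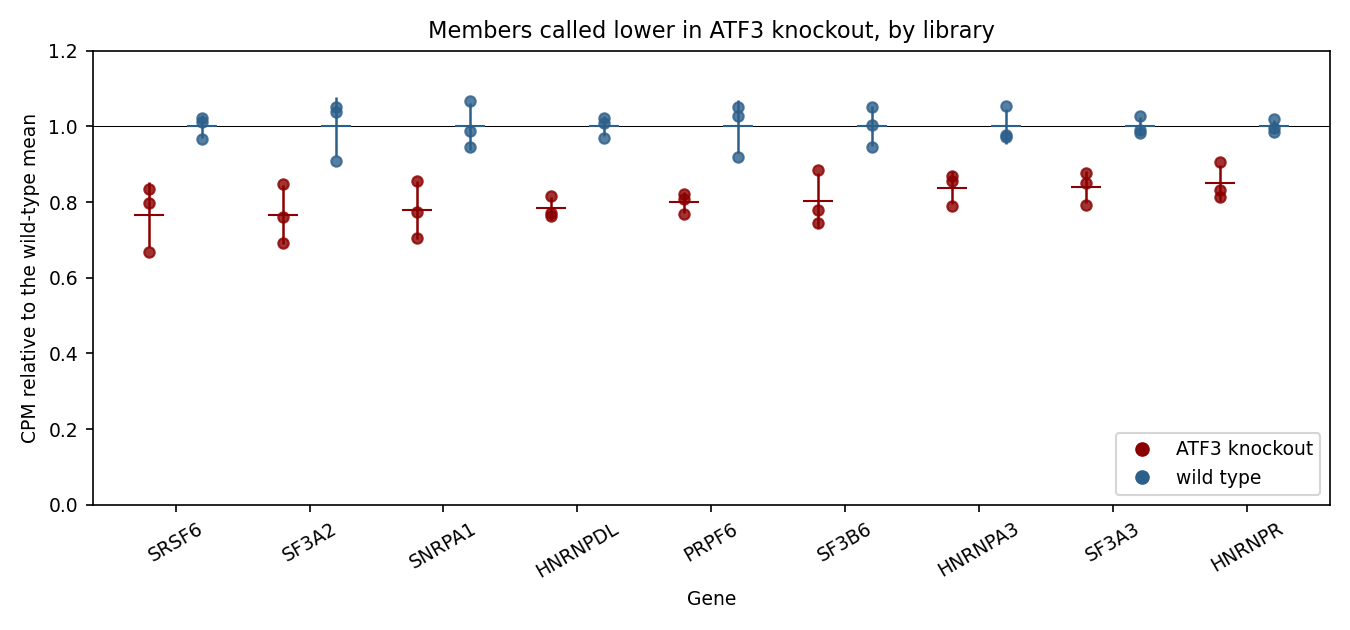
CPM of the 9 genes called lower, relative to the wild-type mean of each gene (y axis from 0), with knockout libraries in red, wild-type libraries in blue, and the mean with its SD (n = 3 each). The genes are ordered by fold change from SRSF6 to HNRNPR, and in each all 3 knockout points lie below all 3 wild-type points.

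Other proteins of the same machinery gave counts of both directions, to be read beside 21.1% of all genes called, 11.4% higher and 9.72% lower. Of 65 further spliceosome proteins tested, 1 rose and 5 fell (9.23% called, median log2 fold change −0.08). The falls included PLRG1, of the PRP19 complex, with 83.6, 76.8 and 76.1 CPM in knockout libraries, against 109, 105 and 119 CPM in wild-type libraries (−0.50, SE 0.07, adjusted p = 0.0101 by edgeR). LSM8, of the ring on U6 RNA, had 161, 130.2 and 120.2 CPM in knockout libraries, against 238.5, 216 and 244.5 CPM in wild-type libraries (−0.77, SE 0.12, adjusted p = 0.0105). Of 28 SR-related proteins and SR kinases, 5 rose and 0 fell (17.9% called, median 0.05). ACIN1, an SR-related protein bound near exon junctions, had 362, 382 and 375 CPM in knockout libraries, against 277, 307.5 and 279.6 CPM in wild-type libraries (0.37, SE 0.06, adjusted p = 0.013). TRA2A, an activator of exon inclusion, had 79.8, 88.0 and 79.1 CPM in knockout libraries, against 61.1, 64.5 and 57.8 CPM in wild-type libraries (0.43, SE 0.07, adjusted p = 0.0133). Transcripts without a gene were matched by length for the 77 genes alone, not for these lists. DHX16 was listed at 0 in every library, and DDX39B in every library but knockout replicate 2. CLK2 was listed at 0 in knockout replicate 3 and wild-type replicates 1 and 2, and at 583 to 659 reads in the others. Whether reads of such genes fell on other transcripts was not tested.

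Of 34 other splicing regulators, 1 rose and 5 fell (17.6% called, median −0.12). RBMX, also known as hnRNP G though its symbol keeps it out of the set, had 422, 414 and 407 CPM in knockout libraries, against 598, 594 and 595 CPM in wild-type libraries (−0.52, SE 0.05, adjusted p = 0.00787 by edgeR). SFPQ, a paraspeckle and splicing protein, had 589, 571 and 596 CPM in knockout libraries, against 768, 756 and 752 CPM in wild-type libraries (−0.37, SE 0.05, adjusted p = 0.00896). Of 15 factors of the exon junction complex and nonsense-mediated decay, 2 rose and 5 fell (46.7% called, beside 21.1% of all genes, median 0.01). The core protein MAGOHB had 17.0, 18.9 and 16.9 CPM in knockout libraries, against 30.1, 26.8 and 28.8 CPM in wild-type libraries (−0.70, SE 0.08, adjusted p = 0.0081). Its partner RBM8A had 137, 134 and 137 CPM in knockout libraries, against 179, 165 and 169 CPM in wild-type libraries (−0.33, SE 0.06, adjusted p = 0.0133). In all 8 genes named from these lists the groups did not overlap, which choosing the called genes with the smallest p makes likely. All 8 calls were lost without wild-type replicate 1, and those of PLRG1, LSM8, ACIN1, TRA2A and RBM8A also without wild-type replicate 3, with adjusted p values up to 0.0716. That of MAGOHB was also lost with the effective length offset (0.0501).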

How the data were processed

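RNA-seq of polyadenylated RNA (Illumina Stranded mRNA Prep, per the labels) was quantified by the authors with Salmon 1.6.0 on hg38, per the submitters' processing notes, which also name FastQC 0.11.9. Which library type, bias options and transcript set were used is not given in the sources used here. For each library, the deposited tables give an estimated count of reads for 177456 transcripts, and 93.0% of the counts above 0 were not whole. The authors also deposited TPM values, used here as levels and shares and not in the main gene test. The deposited length served for matching by length, which can pair a transcript with a gene it does not come from. The effective lengths served for an alternative, the effective length offset, in which they were averaged per gene with TPM as weights. A transcript's effective length was the same in every library, so this offset differs between libraries through the TPM values alone.

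Transcripts were joined by identifier, version ignored, to GENCODE 29 (167027 matched, 10429 had no gene and stayed out, 3.59 to 3.82% of reads). For each of 35052 genes, estimated counts were added up and rounded. The main test was edgeR 4.0.16's quasi-likelihood test (R 4.3.3) on the group alone, with TMM factors and filterByExpr at 10 reads. It left 13131 genes, over which p-values were adjusted by Benjamini-Hochberg (threshold 0.05), with 4 residual degrees of freedom. CPM are TMM-scaled, and log2 fold changes are knockout minus wild type. Transcript usage was tested with diffSpliceDGE. Alternatives used DESeq2 1.42.0 and limma 3.58.1. The steps were tested on simulated data, with changes set in genes drawn from all tested ones. Of genes changed 1.5-fold, 28.4% were called, of those changed 2-fold 67.2% and of those changed 4-fold 89.4%. Of 12755 unchanged genes, 13 were called. A gene not called may therefore still differ, and in some cases by 2-fold or more. The genes, the lists and the marker lists were chosen with earlier results of these data known. Named genes were PRPF8, ATF3, the most abundant and the called genes of each family (up to 3 in each direction), the 2 called genes with the smallest p in each list, and transcripts with changed usage. One gene that this rule names, a member of the set, is counted but not reported here by name. Any other gene singled out was picked with its values in view. No batch or date is in the labels. The same replicate numbers occur in both groups. Correlations of deviations between same-numbered libraries were −0.09, 0.11 and 0.20, so the numbers were not taken to pair samples.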

Additional observations from a re-analysis of the deposited data

How the results depend on the processing

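The main count was 10 of 72 tested genes called (1 higher, 9 lower), and 2770 of all genes (1494 higher, 1276 lower). DESeq2 called 22 of the set (3 higher, 19 lower), and over all genes 1842 higher and 1734 lower. With an offset from the deposited effective lengths, averaged per gene with TPM as weights, edgeR called 3 (0 higher, 3 lower) and 1383 of all genes (722 higher, 661 lower). With the GC trend removed, 3 of the set were higher. Adding the run of 14 transcripts without a gene to PRPF8 left 0 higher. With a minimum of 30 reads 2 transcripts of the set were called, against 0 in the main test. The log2 fold change of PRPF8 was 1.08 with the effective length offset, 0.24 with transcripts of the same length but without a gene added, and 0.25 with the run added, none called. The cause of these differences was not tested, except that added transcripts change PRPF8 by construction.

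Leaving out 1 library at a time gave 0 to 14 calls in the set (0 to 4 higher, 0 to 10 lower) and 0 to 2758 over all genes (0 to 1370 higher, 0 to 1388 lower). PRPF8 ran from 2.02 to 2.21. Transcripts with changed usage numbered 1 to 4, and transcripts called at their own level were 0 in each case. Without wild-type replicate 1, edgeR called 0 genes in all (3496 at an unadjusted p under 0.05). The log2 fold change of SF3B1 ran from −0.138 to 0.0404, positive without knockout replicate 3. With the GC trend removed, SF3B1 turned to 0.0446 and U2AF2 to −0.0288. Neither gene was called.

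Replicate numbers were not taken to pair the samples. With a replicate block, 8 of the set (1 higher, 7 lower) and 2318 of all genes were called, and HNRNPR and SNRPA1 were no longer called.

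Other normalizations (RLE, upper quartile), limma-voom and no filter left the counts in the set within 1.5 times the main ones. At this depth 5 genes of the set had too few reads to be tested.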
